A study of Mus musculus with 40 samples.

Results

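Splicing factors of mouse embryonic fibroblasts were followed through ER stress by ribosome profiling and mRNA sequencing. The genes described are those whose symbols begin with Srsf, Hnrnp, Snrp or Sf3, which gave 49 of the 22417 genes of the deposited table. They comprise 11 Srsf, 18 Hnrnp, 12 Snrp and 8 Sf3 genes, and each carried the value FALSE in an unlabelled column of that table.

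All fibroblasts carried the genotype GADD34-/-, controls included. GADD34, encoded by Ppp1r15a, directs the phosphatase that restores translation after phosphorylation of eIF2alpha. No wild-type sample was analysed here, so no comparison concerns the genotype. Cells were either untreated or exposed to thapsigargin, which blocks the calcium pump of the endoplasmic reticulum (ER), at 1 uM for 0.5, 1, 2 or 4 h. Cycloheximide, an elongation inhibitor, was added at 180 uM for 30 s before lysis. Digitonin then released the cytosol, and the remainder, taken up in dodecyl maltoside, was the ER fraction. In each fraction ribosome footprints were cut with micrococcal nuclease (10 ug/ml for 30 min), and mRNA was sequenced after ribosomal RNA removal. The 20 combinations of assay, fraction and time have 2 samples each, numbered 1 and 2, and ER footprints at 0.5 h hold values for 1 library. The labels do not say whether these were separate cultures, so the p-values measure the spread between samples that may be technical.

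SR proteins (Srsf) bind exonic sequences through RNA recognition motifs and recruit the spliceosome with a domain rich in arginine and serine. Heterogeneous nuclear ribonucleoproteins (Hnrnp) coat nascent transcripts, often repress splice sites, and several also act on the stability or translation of mRNA in the cytosol. Snrp genes encode proteins of the small nuclear ribonucleoproteins: the ring of Sm proteins around the snRNA, and proteins particular to the U1 and U2 particles. SF3a and SF3b (Sf3) are complexes of the U2 particle that hold it at the branch point. All of these proteins are made on ribosomes and then imported into the nucleus. None is a secreted or membrane protein, so their mRNAs are not known as targets of the ER translocation pathway.

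Every measurement below is of mRNA or of ribosomes on it. One sequence feature known to tie an mRNA to translational control lies at its 5' end: mRNAs of the terminal oligopyrimidine class begin with C and a run of pyrimidines. Windows of 15 bases before and 15 bases from the annotated RefSeq start (GRCm38.p6) are shown for 7 members with 1 annotated start. The first 5 passed the test in a footprint comparison given below, and the last 2 are the members that hold such a run. Capitals mark a run of C followed by at least 4 further C or T bases that begins at the start itself, on the transcribed strand only.
Srsf3 (chr17:29032645-29032674, + strand): aaatagggcgaggggacggtggtggtccgc
Sf3a2 (chr10:80798720-80798749, + strand): gattaaacccggatagcgaggccttagcgt
Srsf10 (chr4:135856056-135856085, + strand): gtgggagggggcctggaggcgggagccaag
Hnrnpd (chr5:99978924-99978953, - strand): ccgttcttccgtcggccattttaggtggtc
Hnrnpk (chr13:58402103-58402132, - strand): tcgttctctgtctagcagtgaccgaccgtc
Srsf5 (chr12:80945484-80945513, + strand): gacgccaggacgtccCTTCCattttgtgca
Hnrnpa0 (chr13:58128542-58128571, - strand): cgcgccttcagcggcCTCTTTgtgtggtgt

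RefSeq starts were found for 44 of the 49 members, with 61 entries. Of these entries 2 hold a run at the start (3.28%), which is close to the 2.51% of all 32851 entries. Srsf5 has a run of 5 bases and Hnrnpa0 a run of 6. A match describes these letters at an annotated start, and the start used in these fibroblasts was not measured.

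Values are reads per kilobase of coding sequence, scaled to library size (RPKM), and a blank is taken as not measured. The fewest member reads listed in a footprint library were 4, so a blank can also stand for fewer reads. Members blank in a compared library were not tested, which can leave out members that fell. Reads per library, recovered from the deposited values, ran from 56857 to 9604852 in footprints and from 1502 to 315658 in mRNA. The members held 1.02% to 2.52% of footprint reads and between 38 and 48 of them were listed in a footprint library. In mRNA libraries 15 to 2839 reads fell on members, and the ranks of members in the libraries of a group correlated by a Spearman coefficient of 0.04 to 0.46, against 0.83 to 0.95 in footprints. Of 10 fibroblast markers 9 were listed, and those of epithelial, endothelial and macrophage cells were at 0 in cytosol footprints of untreated cells and of 4 h. Untreated ER footprints listed 1 of 5 epithelial, 3 of 4 endothelial and 2 of 4 macrophage markers. Their sums reached at most 0.324, 0.318 and 1.73 RPKM in a library, and at 4 h 0 were listed in the ER fraction. Of 4 muscle and neural markers Myod1 and Des were not listed in either fraction at these times. In cytosol footprints Tubb3 and Nes together had 89.9 to 157 RPKM in untreated cells and 87.3 to 137 RPKM at 4 h. In these bulk samples fewer cells of a type and less RNA per cell cannot be told apart. Footprints of Ddit3, a target of the stress response, passed the test at each time in both fractions, with 1 treated library in the ER fraction at 0.5 h. Ppp1r15a was listed in 2 of 39 libraries, with 5 and 14 reads. Close paralogues such as Hnrnph1 and Hnrnph2, Snrpb and Snrpn, and the processed pseudogenes of Hnrnpa1 could share reads, and how these were assigned is not given in the sources used here.

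In untreated cells the Hnrnp and Snrp genes carried the highest footprint levels. The median level in the cytosol, a mean of 2 libraries per gene, was 267 RPKM over 18 Hnrnp genes, 267 RPKM over 11 Snrp genes, 171 RPKM over 10 Srsf genes and 70.8 RPKM over 8 Sf3 genes. All 6732 genes listed had a median of 18.8 RPKM. Hnrnpa1, a repressor of splice sites and a shuttling protein, was highest at 1426 RPKM, and Hnrnph3 was lowest at 15.3 RPKM. Within the Snrp genes the Sm ring led, with Snrpg at 553 RPKM, and the U1 protein Snrpa was lowest at 46.0 RPKM. Srsf1, the founding SR protein, led its group at 401 RPKM, and Srsf4 was lowest at 20.8 RPKM. Sf3 genes stayed within a narrow band, from 33.8 RPKM for Sf3a1 to 103 RPKM for Sf3b4. Cytosol mRNA gave medians of 143 RPKM for 16 Hnrnp, 76.5 for 9 Srsf, 75.8 for 5 Snrp and 23.7 for 5 Sf3 genes. Sf3 genes had the lowest median in both assays. Srsf12 was listed in 4 of 39 libraries and Snrpn, an Sm protein known mainly from neurons, in 11, so neither entered a test.

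Thapsigargin left cytosol footprints of no member past the threshold at 0.5 and 1 h, and lowered those of a few Hnrnp and Srsf genes at 2 and 4 h. Hnrnpd, Hnrnpf and Hnrnpr fell at 2 h, and Hnrnpf, Hnrnpk and Srsf10 fell at 4 h. The test was limma on log2(RPKM + 1) with Benjamini-Hochberg adjustment over all genes tested, 2-sided, at a threshold of 0.05. At 2 h 3 of 47 members were lower and 0 higher, where 6.2% of 4971 genes were lower and 5.91% higher. At 4 h 3 of 47 were lower and 0 higher, where 3.54% of 4602 genes were lower and 4.32% higher. At 0.5 and 1 h 0 of 47 passed, where 2.66% of 5369 and 1.2% of 6225 genes passed in either direction. An unadjusted p under 0.05 was found in 5 and 7 members and in 991 and 983 of all genes. The members' shares at 2 and 4 h are near the background. The largest changes at 0.5 h were -1.64 for Hnrnpr and -1.15 for Srsf10, and 1.73 for Sf3b5 and 1.63 for Srsf3. At 1 h they were -1.97 for Hnrnpd and -1.72 for Hnrnpr, and 1.65 for Sf3b5 and 1.25 for Snrpc.

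Values are given below with replicate 1 before replicate 2. Hnrnpf binds G-rich tracts and regulates alternative exons. Its cytosol footprints were 399 and 422 RPKM in untreated cells, 236 and 148 at 0.5 h, 205 and 127 at 1 h, 149 and 108 at 2 h and 131 and 69.2 at 4 h. Each treated library lay below both untreated ones, and the lowest value came at 4 h. The log2 change was -1.69 (SE 0.48, adjusted p = 0.048) at 2 h and -2.10 (SE 0.48, adjusted p = 0.029) at 4 h. Hnrnpr, a relative of the cytoplasmic RNA-binding protein Syncrip, showed 61.6 and 48.8 RPKM in untreated cells, 21 and 13.6 at 0.5 h, 20.8 and 12.1 at 1 h, 9.34 and 7.97 at 2 h and 22.4 and 11.2 at 4 h. Its treated libraries did not overlap the untreated ones either, and the change at 2 h was -2.54 (SE 0.47, adjusted p = 0.013). The 2 h values rest on 9 and 8 reads.

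Hnrnpd, also called AUF1, binds AU-rich elements and is known for its part in mRNA decay. In the cytosol it showed 297 and 198 RPKM in untreated cells, 95.4 and 145 at 0.5 h, 53.7 and 69.4 at 1 h, 51.8 and 44.2 at 2 h and 101 and 57.4 at 4 h. The untreated libraries were the highest pair, and the change was -2.32 (SE 0.46, adjusted p = 0.016) at 2 h. Hnrnpk, a poly(C)-binding KH-domain protein, showed 999.8 and 698 RPKM in untreated cells, 531 and 377 at 0.5 h, 488 and 411 at 1 h, 349 and 284 at 2 h and 288 and 269 at 4 h. All treated libraries lay below both untreated ones, and the lowest value came at 4 h. Its change at 4 h was -1.58 (SE 0.41, adjusted p = 0.044).

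Srsf10 is an SR protein that becomes a general splicing repressor when dephosphorylated. Its cytosol footprints were 210.2 and 187 RPKM in untreated cells, 109.7 and 72.3 at 0.5 h, 87.8 and 68.1 at 1 h, 71.4 and 44.3 at 2 h and 25.2 and 79.1 at 4 h. The 4 h libraries differed from each other by more than those of the other times, and both lay below the untreated pair. The change at 4 h was -2.12 (SE 0.55, adjusted p = 0.046). Reads at 4 h were 5 and 73. With 1 of the 4 libraries left out in turn, the adjusted p of the 4 h calls ran from 0.057 to 0.20 for Hnrnpf, from 0.12 to 0.20 for Hnrnpk and from 0.061 to 0.21 for Srsf10. At 2 h Hnrnpd and Hnrnpr passed only in the fit without untreated replicate 1, and Hnrnpf in none of the 4. With a pseudocount of 0.1 the adjusted p was 0.051 for Hnrnpf at 2 h and, rounded, 0.05 for Srsf10 at 4 h, and after median centring it was 0.053 for Srsf10 at 4 h, so that these calls did not pass. With blanks read as 0, which raises the number of genes tested, Hnrnpd at 2 h passed, and the adjusted p of the 5 other calls ran from 0.052 to 0.092.

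**Figure D1:**
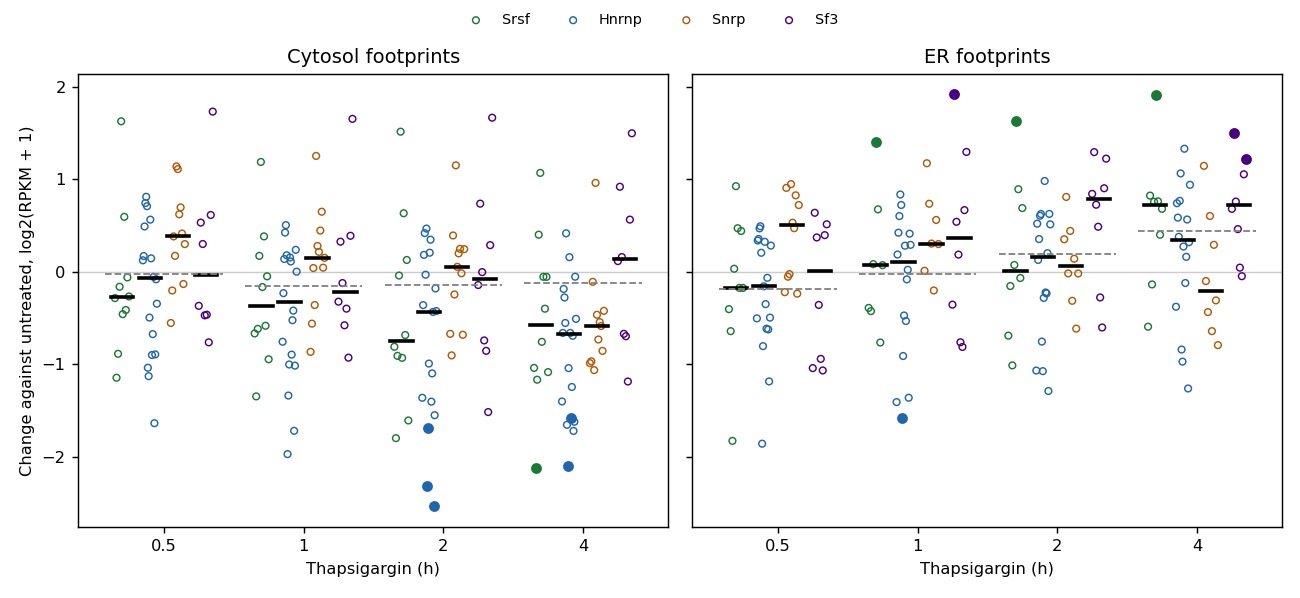
Change of each member's footprints against untreated cells on the log2(RPKM + 1) scale, by time and name group, in the cytosol (left) and the ER fraction (right); times are equally spaced. Each circle is 1 gene, filled where it passed the threshold; black bars are group medians and dashed lines the median of all genes tested. Cytosol members that passed lie below 0 and, apart from Hnrnpd at 1 h, ER members that passed lie above 0.

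In 19 of 47 members (40.4%) all 6 libraries of 1, 2 and 4 h lay below both untreated libraries, where 19% of 4123 genes did so. All 6 lay above in 5 members (10.6%), where 16.4% of genes did so. The 19 comprised 9 of 18 Hnrnp, 6 of 10 Srsf, 3 of 8 Sf3 and 1 of 11 Snrp genes. Among the Srsf genes they were Srsf1, Srsf4, Srsf6, Srsf9, Srsf10 and Srsf11, and among the Sf3 genes Sf3b1, Sf3b2 and Sf3b3, which are the large SF3b subunits. The U1 protein Snrpa was the Snrp gene. Genes above were Srsf3, Hnrnpc, Snrpc, Sf3b4 and Sf3b5. After each library was centred on its median gene, 18 members lay below, where 21.2% of genes did. Then 2 lay above, where 16% of genes did. Without cytosol untreated replicate 1, 8 of 47 members lay above, where 31.6% of 4517 genes did.

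Median changes at 4 h in the cytosol were -0.68 for Hnrnp, -0.59 for Snrp, -0.58 for Srsf and 0.14 for Sf3 genes, beside -0.12 for all genes tested. Of the 47 members 37 were below 0. Differences between name groups were not tested. Summed footprints of 10 abundant cytosolic genes, such as Actb and Eno1, also went from 16789 to 31438 RPKM in untreated cytosol libraries to 9536 to 13579 RPKM at 4 h. Summed footprints of 10 ER-targeted genes, such as collagens and chaperones, went from 48.7 to 1432 RPKM to 2525 to 3201 RPKM in the same libraries. RPKM is relative to the rest of its library, and the part of these shifts in the members' values was not tested.

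Among members with the highest untreated levels, Hnrnpa1, Hnrnpa2b1, Srsf1 and Srsf5 did not pass at any time in the cytosol. Hnrnpa1 footprints in the cytosol were 1852 and 1001 RPKM in untreated cells, 1858 and 1261 at 0.5 h, 1133 and 1186 at 1 h, 1122 and 1001 at 2 h and 970.0 and 762 at 4 h. The untreated libraries were far apart, and the groups overlapped at each time but 4 h. Hnrnpa2b1, of the same A/B family and known for mRNA transport, showed 795 and 589 RPKM in untreated cells, 1124 and 821 at 0.5 h, 661 and 857 at 1 h, 796 and 758 at 2 h and 581 and 622 at 4 h. Both 0.5 h libraries lay above the untreated pair, and the later times overlapped it. Srsf1 showed 312 and 490.4 RPKM in untreated cells, 524 and 196 at 0.5 h, 253 and 239.5 at 1 h, 253 and 196 at 2 h and 181 and 199 at 4 h. At 0.5 h its replicates lay on opposite sides of the untreated pair, and from 1 h on all 6 were lower. Srsf5, another SR protein, showed 338 and 203 RPKM in untreated cells, 519 and 302 at 0.5 h, 329 and 355 at 1 h, 507 and 326 at 2 h and 236 and 270.2 at 4 h. Its values overlapped the untreated range at each time, and no time passed the test.

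Srsf3 footprints rose in the ER fraction at 1, 2 and 4 h, and Sf3a2 and Sf3b5 rose there at some of these times. Srsf3 is the smallest SR protein and also an adaptor for mRNA export. In the ER fraction its footprints were 221 and 247 RPKM in untreated cells, 445 in the 1 library of 0.5 h, 707 and 547 at 1 h, 706 and 750.2 at 2 h and 792 and 977 at 4 h. All 7 treated libraries lay above both untreated ones, and the highest came at 4 h. The log2 change was 1.41 (SE 0.37, adjusted p = 0.027) at 1 h, 1.63 (SE 0.37, adjusted p = 0.01) at 2 h and 1.91 (SE 0.38, adjusted p = 0.0026) at 4 h. The 4 h call passed in each fit that left out 1 library, with an adjusted p of 0.014 to 0.025, while the calls at 1 and 2 h passed in none of them, with 0.054 to 0.15.

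In the cytosol Srsf3 showed 460.1 and 314 RPKM in untreated cells, 1274 and 1082 at 0.5 h, 634 and 1181 at 1 h, 1239.7 and 952 at 2 h and 731 and 869 at 4 h. All 8 treated libraries lay above the untreated pair here as well. The changes were 1.63 (SE 0.46, adjusted p = 0.099) at 0.5 h and 1.07 (SE 0.45, adjusted p = 0.16) at 4 h, and no time passed the test. Its change in the ER fraction minus that in the cytosol, over the mean of 1, 2 and 4 h, was 0.39 (SE 0.43, adjusted p = 0.63).

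Sf3a2, a subunit of SF3a, had ER footprints of 16.9 and 18.8 RPKM in untreated cells, 28.3 in the 1 library of 0.5 h, 61.7 and 79.5 at 1 h, 43.2 and 47.1 at 2 h and 34.8 and 78.5 at 4 h. All treated libraries lay above both untreated ones, with the widest spread at 4 h. The change was 1.92 (SE 0.45, adjusted p = 0.015) at 1 h and 1.50 (SE 0.44, adjusted p = 0.023) at 4 h. Reads were 52 and 33 at 1 h and 7 and 32 at 4 h. Cytosol footprints of Sf3a2 were 93.9 and 34.4 RPKM in untreated cells, 152 and 44.7 at 0.5 h, 80.8 and 63.4 at 1 h, 147 and 62.1 at 2 h and 112 and 105 at 4 h. The groups overlapped at 0.5, 1 and 2 h, and both 4 h libraries lay above the untreated pair. Sf3b5, the smallest SF3b subunit, had ER footprints of 43.4 and 70.2 RPKM in untreated cells, 79.2 in the 1 library of 0.5 h, 126 and 149 at 1 h, 154 and 110.1 at 2 h and 111 and 151 at 4 h. None of its treated libraries fell to the untreated range, and the change at 4 h was 1.22 (SE 0.42, adjusted p = 0.043). The 4 h values rest on 4 and 11 reads. In the cytosol Sf3b5 showed 59.3 and 95.9 RPKM in untreated cells, 266 and 240.1 at 0.5 h, 159 and 359 at 1 h, 146 and 397 at 2 h and 259.6 and 177 at 4 h, again without overlap.

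The 4 h calls of Sf3a2 and Sf3b5 did not pass after median centring, with an adjusted p of 0.053 and 0.10. With 1 library left out in turn, their adjusted p ran from 0.023 to 0.17 and from 0.063 to 0.32, and Sf3a2 passed only without 4 h replicate 1. At 1 h Sf3a2 passed only without 1 h replicate 1. With blanks read as 0 the adjusted p was 0.073 for Sf3a2 at 1 h and 0.11 at 4 h, and 0.10 for Sf3b5 at 4 h.

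**Figure D2:**
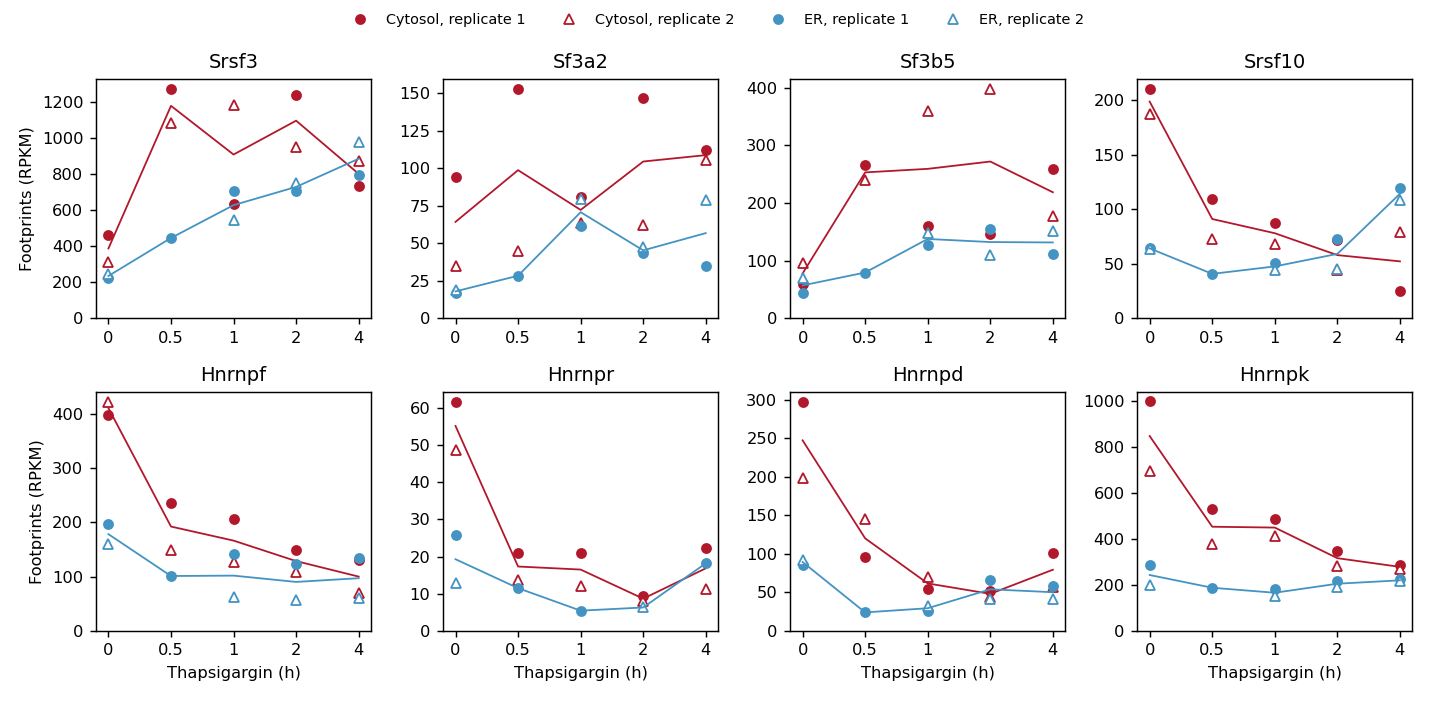
Footprint level in RPKM of the 8 members that passed the threshold in a footprint comparison with untreated cells, by hours of thapsigargin (equally spaced), with each panel's axis from 0. Each marker is 1 library and the lines join means; Srsf3, Sf3a2 and Sf3b5 lie higher after treatment in the ER fraction, while the 5 others lie lower in the cytosol.

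Hnrnpd was the member whose ER footprints passed as lower, at 1 h. They were 86 and 92.6 RPKM in untreated cells, 23.9 in the 1 library of 0.5 h, 26 and 32.5 at 1 h, 66.3 and 41.5 at 2 h and 58.8 and 41.4 at 4 h, so that all treated libraries lay below the untreated ones and the lowest came at 0.5 and 1 h. The change at 1 h was -1.58 (SE 0.42, adjusted p = 0.027), and with 1 library left out in turn the adjusted p ran from 0.10 to 0.14. It was 0.073 with blanks read as 0. Its cytosol decline at 2 h, given above, had the same direction. Hnrnpk in the ER fraction showed 285 and 201 RPKM in untreated cells, 188 in the 1 library of 0.5 h, 180.3 and 151 at 1 h, 218 and 192 at 2 h and 224 and 216 at 4 h, and these groups overlapped at 2 and 4 h, while the libraries of 0.5 and 1 h lay below. Hnrnpf showed 197 and 159 RPKM in untreated cells, 101 in the 1 library of 0.5 h, 141 and 61.9 at 1 h, 124 and 56.2 at 2 h and 134 and 60.2 at 4 h, with all treated libraries below the untreated pair and no time past the test. Hnrnpr was not listed in every ER library from 1 h on, so it was not tested there at those times.

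Across the ER fraction, 2 of 38 members were higher and 1 lower at 1 h, where 6.5% and 6.61% of 3633 genes were. At 2 h 1 of 40 was higher and 0 lower, where 11.3% and 5.69% of 3252 genes were. At 4 h 3 of 40 were higher and 0 lower, where 22% and 6.77% of 3162 genes were. Whether the members differ from other genes in this was not tested. These shares cover genes listed in each library compared, which can leave out genes that fell. Srsf9, at 38.1 and 47.8 RPKM in untreated ER footprints, and Snrpf, at 67.2 and 79.0 RPKM, were blank in both 4 h libraries. At 0.5 h, with 1 treated library, 0 of 44 passed, where 0.225% of 4893 genes did, and 2 members and 815 genes had an unadjusted p under 0.05. The largest 0.5 h changes were -1.86 for Hnrnpd and -1.83 for Srsf11, and 0.95 for Snrpd1 and 0.92 for Srsf3, on the log2 scale.

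All 6 ER libraries of 1, 2 and 4 h lay above both untreated ones in 8 of 37 members (21.6%), where 24.5% of 2241 genes did so. These were Srsf3, Srsf5, Hnrnpab, Hnrnpc, Sf3a2, Sf3a3, Sf3b4 and Sf3b5, which include 4 of the 8 Sf3 genes. All 6 lay below in 4 members (10.8%), Hnrnpa0, Hnrnpd, Hnrnpf and Hnrnpu, where 17.1% of genes did so. Without ER untreated replicate 1, 15 of 37 members lay above, where 32.7% of genes did. Median changes at 4 h were 0.72 for Srsf and 0.72 for Sf3, 0.35 for Hnrnp and -0.21 for Snrp genes, beside 0.44 for all genes tested. Summed footprints of ER-targeted genes went from 14179 to 17426 RPKM in untreated ER libraries to 6738 to 7468 RPKM at 4 h. The 10 abundant cytosolic genes were also listed in the ER fraction. Their sum was 8951 to 9687 RPKM in untreated ER libraries and 6943 to 9283 RPKM at 4 h. The part of either set in the members' ER values was not tested.

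The remaining leading members had ER footprints as follows. Srsf1 showed 155 and 171 RPKM in untreated cells, 123 in the 1 library of 0.5 h, 172 and 89.4 at 1 h, 107 and 94 at 2 h and 77.7 and 149 at 4 h, with 1 h replicate 1 at the higher untreated value and all other treated libraries below the untreated pair. Srsf5 showed 135 and 119 RPKM in untreated cells, 175 in the 1 library of 0.5 h, 209 and 195 at 1 h, 290.0 and 191 at 2 h and 197 and 234 at 4 h, with all treated libraries above. Hnrnpa1 showed 459 and 244 RPKM in untreated cells, 424 in the 1 library of 0.5 h, 498 and 292 at 1 h, 499.6 and 463 at 2 h and 452 and 695 at 4 h, where 1 h replicate 1, both 2 h libraries and 4 h replicate 2 exceeded the higher untreated value, and the rest lay between the untreated values. Hnrnpa2b1 showed 309 and 364 RPKM in untreated cells, 429 in the 1 library of 0.5 h, 476 and 425 at 1 h, 458 and 293 at 2 h and 530.2 and 478 at 4 h, with 2 h replicate 2 below the untreated pair and all other treated libraries above it.

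Sm ring genes did not pass at any time in the cytosol, and the replicates of some, such as Snrpd1, stood far apart. Snrpg, Snrpd1 and Snrpd3 encode subunits of the ring. Snrpg showed 603 and 502 RPKM in untreated cells, 1176 and 389 at 0.5 h, 706 and 528 at 1 h, 820.4 and 518 at 2 h and 432 and 389.8 at 4 h in the cytosol. Its replicate 1 values at 0.5, 1 and 2 h lay above the untreated pair, and both 4 h libraries lay below it. Snrpd1 showed 590.2 and 233 RPKM in untreated cells, 1367 and 469 at 0.5 h, 710.4 and 284 at 1 h, 1009.7 and 146 at 2 h and 487 and 147 at 4 h, and Snrpd3 showed 370.0 and 417 RPKM in untreated cells, 873 and 464 at 0.5 h, 549 and 521 at 1 h, 505 and 431 at 2 h and 229.9 and 315 at 4 h. In each of these genes the replicate 1 library of 0.5 h was the highest of all 10. The ring as a whole had a median log2 change of 0.41 at 0.5 h and -0.55 at 4 h, and 0 of its 7 tested genes passed at any time, with 0 at an unadjusted p under 0.05. At 4 h the estimates of all 7 were below 0.

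In the ER fraction Snrpg showed 191 and 233 RPKM in untreated cells, 348 in the 1 library of 0.5 h, 368 and 183 at 1 h, 174 and 249 at 2 h and 189 and 77.7 at 4 h. Snrpd1 showed 163 and 118 RPKM in untreated cells, 268 in the 1 library of 0.5 h, 332 and 88 at 1 h, 287 and 124 at 2 h and 262 and 169 at 4 h, and Snrpd3 132 and 228 RPKM in untreated cells, 241 in the 1 library of 0.5 h, 309 and 212 at 1 h, 286 and 128 at 2 h and 229 and 198 at 4 h. In these 3 genes the replicate 1 library of 1 h held the highest of the ER values.

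Split by replicate, the 11 Snrp genes had a median cytosol change at 0.5 h of 1.14 in replicate 1 and -0.19 in replicate 2. Snrpe, another ring subunit, went from 402 to 1286 RPKM in replicate 1 and from 177 to 97.6 RPKM in replicate 2. The 9 members under 600 bases (Srsf3, Snrpc, Sf3b5 and 6 ring genes) had a median change of 1.24 in replicate 1 and 0.11 in replicate 2, and the 18 members of at least 1200 bases had -0.58 and -0.50. Across 47 members the change correlated with coding length by a Spearman coefficient of -0.67 in replicate 1 and -0.13 in replicate 2. Over all genes these were -0.44 (6706 genes) and -0.08 (6466 genes). In later cytosol libraries the members gave -0.63 and -0.21 at 1 h, -0.54 and -0.16 at 2 h and -0.28 and -0.155 at 4 h. In the ER fraction they gave -0.60 in the 1 library of 0.5 h, and -0.63 and -0.10 at 1 h. Later ER values were -0.35 and 0.13 at 2 h and -0.04 and 0.07 at 4 h. Over all genes in these further comparisons the coefficient ran from -0.39 to -0.05. All points of a replicate share the same pair of libraries, and coding length follows name group. Whether length, or read length and nuclease digestion in a library, plays a part was not tested.

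**Figure D3:**
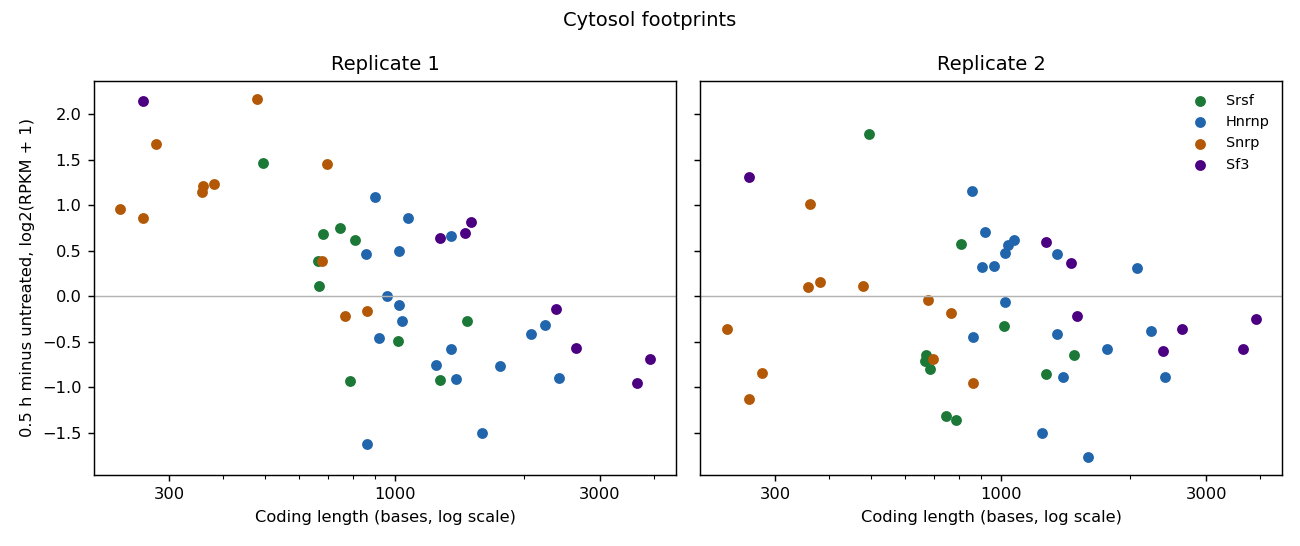
Change of cytosol footprints from untreated to 0.5 h on the log2(RPKM + 1) scale against coding length in bases (log axis), 1 point per member coloured by name group, for replicate 1 (left) and replicate 2 (right). In replicate 1 the members under 600 bases lie above 0, and in replicate 2 they lie on both sides of it. Srsf3, Sf3b5, Snrpc, Snrpd1, Snrpd2 and Snrpd3 lie above 0 in both.

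Sf3b1 and Sf3b4 lay on opposite sides of their untreated values in the cytosol, and neither passed there. Sf3b1, the subunit that contacts the branch point and is often mutated in blood cancers, had cytosol footprints of 122 and 83.6 RPKM in untreated cells, 74.8 and 70 at 0.5 h, 59.3 and 76 at 1 h, 66.8 and 53.6 at 2 h and 68 and 58.2 at 4 h. All treated libraries lay below the untreated pair. Sf3b4, an RNA-binding subunit, showed 87.7 and 118 RPKM in untreated cells, 137 and 179 at 0.5 h, 144 and 124 at 1 h, 121 and 128 at 2 h and 175 and 131 at 4 h, and all treated libraries lay above. In the ER fraction Sf3b1 showed 52.8 and 31.5 RPKM in untreated cells, 31.6 in the 1 library of 0.5 h, 45.5 and 47.5 at 1 h, 62.9 and 52.6 at 2 h and 59.2 and 53.9 at 4 h, where the groups did not overlap at 4 h but did at 1 and 2 h. Sf3b4 showed 41.5 and 60.9 RPKM in untreated cells, 66.5 in the 1 library of 0.5 h, 65.2 and 99.2 at 1 h, 94.3 and 95.5 at 2 h and 96.7 and 115 at 4 h, again with all treated libraries above. Neither gene passed in a footprint comparison with untreated cells.

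In untreated cells footprints of 9 members were lower in the ER fraction than in the cytosol. Of 45 members 44 had a negative difference, 9 passed as lower and 0 as higher, where 8.64% of 5786 genes were lower and 8.04% higher. The 9 were Hnrnpa1, Hnrnpd, Hnrnpk, Hnrnpl, Hnrnpm, Hnrnpul2, Srsf10, Snrpa and Sf3b1, of which 6 are Hnrnp genes. Hnrnpa1 had 1852 and 1001 RPKM in the cytosol and 459 and 244 RPKM in the ER fraction, a difference of -2.02 (SE 0.45, adjusted p = 0.0083). Hnrnpk had 999.8 and 698 and 285 and 201 RPKM, a difference of -1.80 (SE 0.37, adjusted p = 0.0052). Snrpa, which binds a stem loop of U1 snRNA, had 42.4 and 49.5 and 16.8 and 9.26 RPKM, a difference of -1.79 (SE 0.45, adjusted p = 0.019).

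The remaining differences that passed were -1.62 for Srsf10, -1.43 for Hnrnpd and -1.32 for Hnrnpl, which binds CA repeats. They were -1.28 for Sf3b1, -1.25 for Hnrnpul2 and -1.24 for Hnrnpm. Medians were -1.25 for Hnrnp, -1.24 for Snrp, -1.04 for Sf3 and -0.96 for Srsf genes, beside -0.79 for all genes tested. Hnrnpa0 was the exception at 0.04. After median centring Hnrnpa1, Hnrnpk and Snrpa passed, and over all genes the split went from 465 higher and 500 lower to 483 and 155. With 1 library left out in turn, fewer members passed in each fit, and the number of all genes passing changed as well. The difference ran from -2.47 to -1.57 for Hnrnpa1, from -2.06 to -1.54 for Hnrnpk and from -2.19 to -1.39 for Snrpa.

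**Figure D4:**
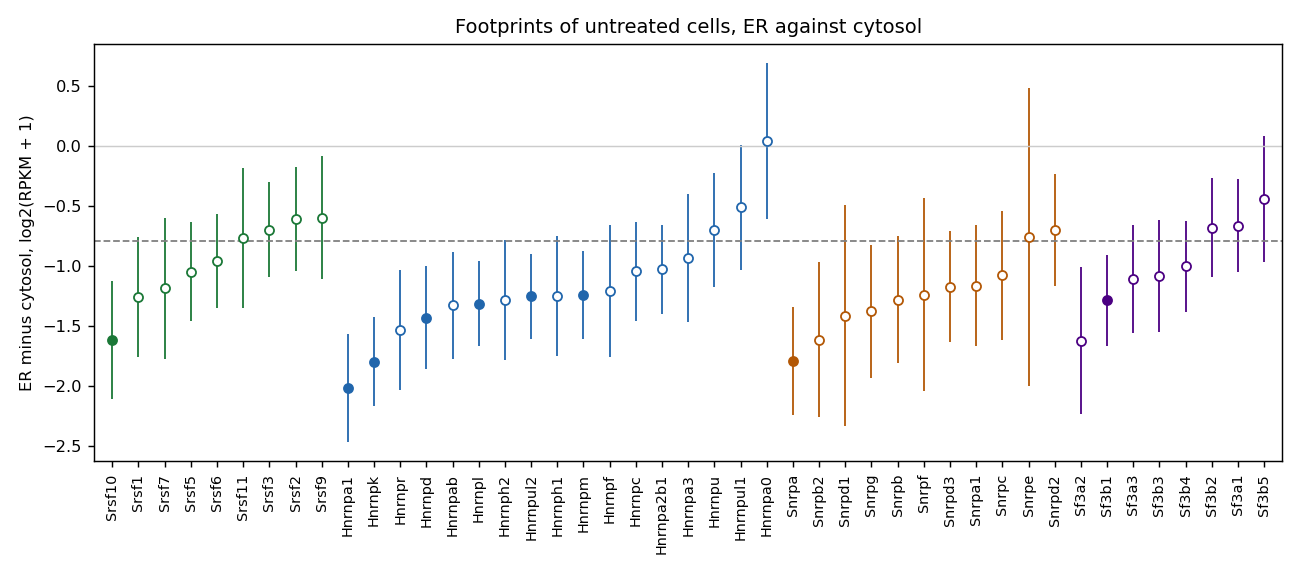
Difference between the ER fraction and the cytosol in footprints of untreated cells, on the log2(RPKM + 1) scale, for 45 members ordered within name groups. Points are estimates with SE from 2 libraries per fraction, filled where they passed the threshold; the dashed line is the median of all genes tested (-0.79), and all members but Hnrnpa0 lie below 0.

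The change in the ER fraction minus the change in the cytosol, over the mean of 1, 2 and 4 h, was above 0 in 34 of 37 members. Its median was 0.47, beside 0.36 for 2046 genes, and 0 of 37 passed, where 8.65% of genes did. An unadjusted p under 0.05 was found in 5 members and 471 genes. Group medians were 0.74 for Hnrnp, 0.58 for Sf3, 0.41 for Srsf and 0.34 for Snrp genes. Srsf10 was largest at 1.84 (SE 0.54, adjusted p = 0.052), followed by Sf3b1 at 1.04. The lowest values were -0.36 for Sf3b5 and -0.28 for Snrpd2. ER footprints of Srsf10 were 64.4 and 63.7 RPKM in untreated cells, 40.7 in the 1 library of 0.5 h, 50.5 and 44.5 at 1 h, 72.6 and 45.4 at 2 h and 119.5 and 109 at 4 h, so that its 4 h level in the ER fraction was above that in the cytosol. Srsf10 passed after median centring and in the fits without either 4 h cytosol library.

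Cytosol mRNA of no member, and of no gene tested, passed the test after thapsigargin in the fit without a replicate block. Members did pass with the replicate number as a block, a count given below with its limits. Of 28 members listed in all libraries compared, 27 had a negative change over the mean of 1, 2 and 4 h. Their median was -0.93, beside -0.71 for 1605 genes, and 0 of 28 passed where 0% of genes did, with 2 members and 226 genes at an unadjusted p under 0.05. All 6 treated libraries lay below both untreated ones in 8 of 28 members (28.6%), where 18.7% of genes did so. These were Hnrnpk, Hnrnpm, Hnrnpu, Hnrnpul2, Sf3a3, Sf3b1, Sf3b2 and Srsf11. All 6 lay above in 0 of 28, where 1.99% of genes did so. After median centring 3 members lay below without overlap, where 6.35% of genes did. Without untreated mRNA replicate 1 the count was 14 of 28, where 44% of genes did so, and without replicate 2 it was 15 of 29, where 36.9% did.

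The largest mRNA changes were -1.80 (SE 1.71) for Hnrnpa2b1 and -1.77 for Hnrnpf, and the highest were 0.52 for Srsf4 and -0.19 for Srsf1. The replicates of Hnrnpa2b1 stood far apart. Untreated Hnrnpa2b1 mRNA was 799 RPKM in replicate 1 and 164 in replicate 2, and over the 10 cytosol libraries it ran from 8.72 to 799 with a median of 288 RPKM. Hnrnpk mRNA was steadier, at 124 and 161 RPKM untreated and 54.2 and 34.3 RPKM at 4 h. Srsf3 mRNA was listed in 9 of 10 cytosol libraries and ran from 5.53 to 67.1 RPKM.

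Cytosol mRNA of other members with library values above is given by lowest, median and highest. Srsf1 had 42.8, 76.3 and 105 RPKM, Hnrnpa1 had 61.9, 218 and 474 RPKM, and Hnrnpd had 27.9, 86.2 and 220.4 RPKM. Hnrnpf had 13, 98.3 and 485 RPKM, Hnrnpr 5.06, 25.1 and 116 RPKM, and Sf3b1 2.06, 14.2 and 27.5 RPKM. Sf3a2, Sf3b4 and Sf3b5 mRNA had values in the replicate 2 libraries alone.

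For ER mRNA 0 of 14 members passed, with 0 at an unadjusted p under 0.05, where 0% of 1129 genes passed and 11 had such a p. Members had a median change of 0.45, beside 0.16 for all genes, from -0.49 for Hnrnpa3 and -0.34 for Hnrnpab to 0.96 for Hnrnpa1 and 1.55 for Sf3b2. All 6 treated ER libraries lay above both untreated ones in 0 of 14 members, where 4.52% of genes did so, and below in 0, where 2.48% did so. Between fractions, over untreated and treated mRNA libraries together, 0 of 14 members passed, where 3.15% of 825 genes did, and 0 members and 90 genes had an unadjusted p under 0.05. Their median difference was -0.25, from -0.99 for Hnrnpa1 and -0.79 for Hnrnpl to 0.37 for Hnrnpd and 0.44 for Hnrnpul2.

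Footprints per mRNA in the cytosol of untreated cells passed as higher in 6 of 35 members, where 14.3% of 2712 genes did. Srsf3 led with 460.1 and 314 RPKM of footprints and 28.7 and 22.7 RPKM of mRNA, a log2 difference of 3.84 (SE 0.73, adjusted p = 0.0044). Its mRNA rested on 7 reads in replicate 1 and 1 read in replicate 2. Hnrnpl had 426 and 366 and 35.7 and 76.3 RPKM, a difference of 2.89 (SE 0.90, adjusted p = 0.039). Hnrnpk had 999.8 and 698 and 124 and 161 RPKM, a difference of 2.56 (SE 0.54, adjusted p = 0.0061). In these 3 genes each footprint library lay above each mRNA library.

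Srsf1 at 2.26, Hnrnpc, which binds uridine tracts, at 2.08, and Sf3b3 at 1.82 also passed as higher. This made 6 of 35 members higher and 0 lower, where 14.3% of 2712 genes were higher and 1.55% lower. Untreated cytosol mRNA reads in replicates 1 and 2 were 23 and 7 for Srsf1, 20 and 8 for Hnrnpc and 45 and 4 for Sf3b3. At the other end stood Srsf4 at -1.80 (SE 0.66, adjusted p = 0.075) and Srsf11 at -1.18. The members' median was 1.05, beside 0.73 for all genes tested. After median centring 1 member was higher, Srsf3 at 2.85 (adjusted p = 0.034), and 2 were lower, Srsf4 and Srsf11, and over all genes the split went from 388 higher and 42 lower to 63 and 157. Srsf3 passed in each fit that left out 1 library, with an adjusted p of 0.021 to 0.036. In each of the 4 such fits fewer members passed than with all libraries, and fewer of all genes passed as well. The difference ran from 3.57 to 4.12 for Srsf3 and from 1.89 to 2.63 for Srsf1. It ran from 1.52 to 2.65 for Hnrnpc and from 1.34 to 2.31 for Sf3b3.

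**Figure D5:**
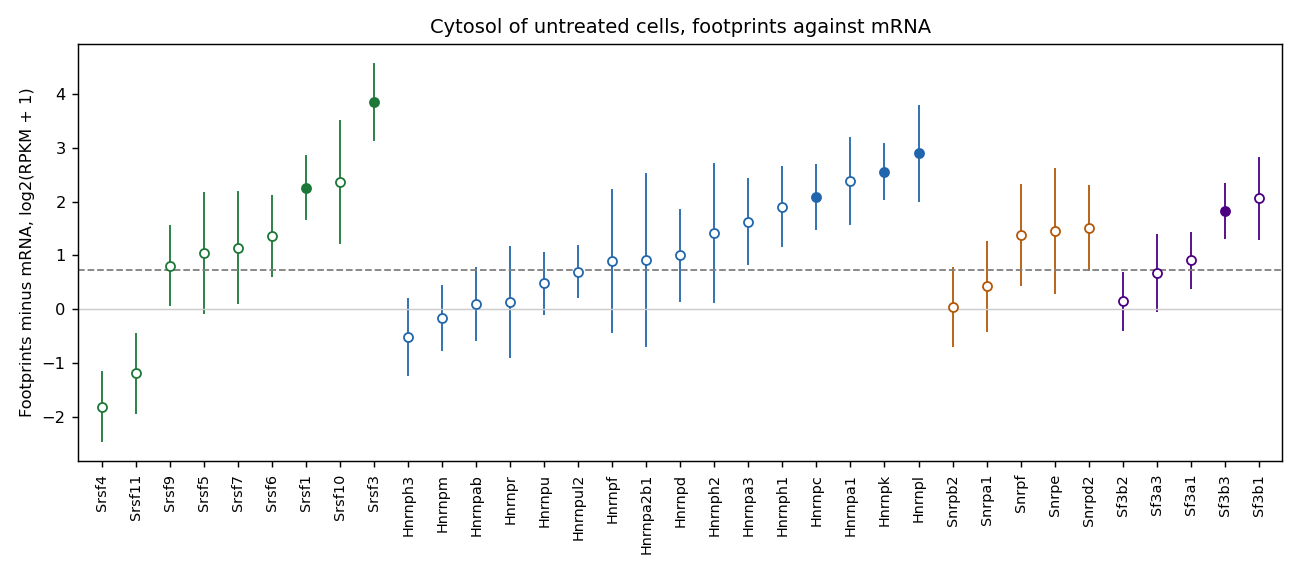
Difference between footprints and mRNA in the cytosol of untreated cells on the log2(RPKM + 1) scale for 35 members, ordered within name groups. Points are estimates with SE from 2 libraries per assay, filled where they passed the threshold; the dashed line is the median of all genes tested (0.73), Srsf3 is highest at 3.84 and Srsf4 lowest at -1.80.

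Changes in footprints per mRNA with thapsigargin could not be called. In the cytosol 0 of 28 members passed, where 0.078% of 1282 genes did, and 0 members and 98 genes had an unadjusted p under 0.05. Values ran from -1.14 for Srsf4 and -1.09 for Hnrnpd to 1.64 for Hnrnpa3 and 1.84 for Hnrnpa2b1, whose SE was 1.91. In the ER fraction 0 of 12 passed, where 0% of 679 genes did, and 0 members and 68 genes had an unadjusted p under 0.05, with values from -1.88 for Sf3b2 and -1.67 for Hnrnpd to 0.93 for Hnrnpa3 and 1.08 for Hnrnpab. Srsf3 was not tested here, since its mRNA was not listed in every library. These counts do not show that footprints and mRNA changed alike.

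Beyond the members, 96 further splicing genes from a list of 97 were in the table. In cytosol footprints 2 of 92 were higher at 0.5 h and 1 of 95 at 1 h, with 0 lower at either time, where 2.66% and 1.2% of all genes passed. At 2 h 4 of 93 were higher and 9 lower, where 5.91% and 6.2% of all genes were. At 4 h 3 of 90 were higher and 3 lower, where 4.32% and 3.54% were. In ER footprints 0 of 84 passed at 0.5 h, where 0.225% of all genes did. At 1 h 6 of 75 were higher and 1 lower, where 6.5% and 6.61% of all genes were. At 2 h 8 of 73 were higher and 1 lower, where 11.3% and 5.69% were, and at 4 h 11 of 64 were higher and 0 lower, where 22% and 6.77% were. Clk1, Clk4 and Srpk2, which encode kinases of SR proteins, were among those called and are named after their values were seen. Clk2, Clk3 and Srpk1, of the same kinase families and on the same list, were not called in any comparison. Clk1 was higher at each time in the cytosol and at 1, 2 and 4 h in the ER fraction, with log2 changes at 4 h of 2.47 and 3.39. Clk4 was higher in both fractions at 4 h, by 2.70 and 3.27 on the log2 scale, and Srpk2 in the ER fraction alone, by 2.12. In the same ER comparison Srsf3 had the change of 1.91 given above, where 22% of all genes were higher. A link between these kinases and Srsf3 was not tested. In untreated cells 11 of 91 of these genes were lower in the ER fraction than in the cytosol and 0 higher, where 8.64% and 8.04% of all genes were.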

How the data were processed

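Ribosome footprints and mRNA were measured in the cytosol and ER fractions of GADD34-/- mouse embryonic fibroblasts. The authors deposited 1 table of RPKM values per gene and library, and a blank was read as not measured. Bowtie and the human build hg19 are named, per the submitters' processing notes, beside mouse gene symbols, so gene positions were taken from RefSeq alone. The placement of reads shared by paralogues is not given in the sources used here. Whole reads were recovered from the deposited RPKM for 13206 genes.

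From these values log2(RPKM + 1) was computed, and limma 3.58.1 in R 4.3.3, with a mean-variance trend, was fitted to all genes whose mean reached 1 RPKM. A gene was tested where each library compared listed it. P-values were adjusted by Benjamini-Hochberg over all genes tested, 2-sided, at 0.05, and the fitting code was tested on simulated data. A log2 change with 1 added understates changes of low genes. Depth per library, given with the results, limits the precision of mRNA values. Intervals were not computed, and recovered reads are not independent molecules.

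Values in every library were given for members past the threshold against untreated footprints (at most 12 in each direction) and for the 3 highest of each name group in untreated cytosol footprints. In other contrasts at most 8 passing members per direction were named, or the 2 largest changes in each direction where none passed; Hnrnpm, the 9th between fractions, and Snrpe were named after their values were seen. The members and lists were chosen with earlier results of these data known. Alternatives covered the pseudocount, the filter, blanks read as 0, median centring, a replicate block and leaving out each library.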

Additional observations from a re-analysis of the deposited data

Results flagged for a closer look

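At single times, 6 members had both ER libraries above the untreated ER pair while both cytosol libraries lay below the untreated cytosol pair. At 4 h this held for 6 of 40 members listed in all 8 libraries (15%), where it held for 7.18% of 2728 genes, and at 2 h for 1 of 40, where it held for 3.61% of 2908 genes. The opposite pattern was met by 0 members at 4 h, where 4.58% of genes met it. The difference at each time was not tested. The ER log2 change minus the cytosol log2 change at 4 h was 2.95 for Srsf10, 2.13 for Snrpa, 1.45 for Hnrnpul2, 1.26 for Hnrnpm, 1.13 for Sf3b1 and 0.80 for Srsf6. For Hnrnpul2 it was 0.94 at 2 h. Snrpa at 4 h rested on 4 and 6 reads in the ER fraction and 4 and 28 in the cytosol. Srsf10 at 4 h rested on 13 and 24 reads in the ER fraction and 5 and 73 in the cytosol. Over the mean of 1, 2 and 4 h, where the difference was tested with limma, 0 of 37 members passed, where 8.65% of genes did, and 5 members and 471 of 2046 genes had an unadjusted p under 0.05.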

How the results depend on the processing

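For untreated footprints per mRNA, median centring moved the split of members called from 6 higher and 0 lower to 1 higher and 2 lower. Of 88 recomputed counts of members, under settings other than leaving out a library, 62 stayed within 1.5 times the reported count. With the replicate number as a block, members called at 0.5, 1, 2 and 4 h were 1, 2, 11 and 7 in cytosol footprints and 2, 6, 4 and 9 in ER footprints. The block gave 9 for cytosol mRNA, 26 between fractions, 2 for the ER change minus the cytosol change and 11 for footprints per mRNA. Apart from cytosol footprints at 0.5 h, counts over all genes with the block are not given here. The other member counts therefore cannot be set against the background. Same-numbered samples deviated together by a correlation of -0.19 to 0.28 over 7 pairs of footprint groups and 0.43 to 0.69 over 8 pairs of mRNA groups, and with 2 numbers this does not establish pairing. With the numbers crossed at 0.5 h in the cytosol, an alternative chosen after seeing the data, 0 members and 327 genes passed, against 276 genes uncrossed and 143 without the block.

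With blanks read as 0, the counts were 1 at 2 h and 0 at 4 h in the cytosol, 1 at 1 h and 1 at 4 h in the ER fraction, 3 between fractions and 3 for footprints per mRNA. Median centring gave 5 for the cytosol at 4 h, 3 between fractions, 1 for the ER change minus the cytosol change, 3 for footprints per mRNA, 2 for cytosol members above without overlap and 3 for mRNA members below. The mean of 1, 2 and 4 h in place of 4 h, also chosen after seeing the data, gave 8 in the cytosol and 5 in the ER fraction. For most of these counts the share of all genes under the same setting is not given here, so they cannot be set against the background. The cause of these shifts was not tested.

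With each library left out, members called ran from 0 to 2 at 2 h and 0 to 0 at 4 h in the cytosol. In the ER fraction they ran from 0 to 2 at 1 h, 0 to 0 at 2 h and 1 to 3 at 4 h. Between fractions the range was 0 to 4, for the ER change minus the cytosol change 0 to 1, for ER footprints per mRNA with thapsigargin 0 to 1, and for untreated footprints per mRNA 1 to 5. Without overlap, cytosol members below ran from 19 to 21 and above from 5 to 8, ER members above from 8 to 15 and below from 4 to 6, and mRNA members below from 8 to 15. In the same order, shares of all genes ran from 19.1% to 28.7%, 16.1% to 31.6%, 25.2% to 32.7%, 16.7% to 24.6% and 19.4% to 44%. A lone remaining sample was assumed to vary like the other groups. The number of all genes called also changed in the fits with a library left out, so the member counts do not describe the members alone. Member reads of 15 to 2839 per mRNA library limit the mRNA and efficiency comparisons.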

Other observations

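Other genes of the splicing machinery, outside the 4 name groups, also passed in footprints. In the ER fraction at 4 h the limma log2 change was 2.31 for Hnrpdl, a relative of Hnrnpd, 2.40 for Mbnl2, a regulator of alternative exons, and 2.23 for Ddx39b, a helicase of spliceosome assembly and mRNA export. In the cytosol at 4 h Cirbp, the cold-inducible RNA-binding protein, rose by 2.22, while Hnrpll changed by -2.11, Dhx15, a helicase that takes spliceosomes apart, by -1.77 and Nono, a paraspeckle protein, by -1.73. Lsm7, of the ring on U6 snRNA, rose in the cytosol by 2.41 at 0.5 h and 1.82 at 2 h. All 6 libraries of 1, 2 and 4 h lay above both untreated ones in 18 of 60 of these genes in the ER fraction and in 12 of 88 in the cytosol, where 24.5% and 16.4% of all genes did so. All 6 lay below in 1 of 60 in the ER fraction and in 20 of 88 in the cytosol, where 17.1% and 19% of all genes did so.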
